A study of Homo sapiens with 12 samples.

Results

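The 10 genes described here encode amino acid transporters of the plasma membrane and their shared heavy chain: SLC7A11, SLC7A5, SLC3A2, SLC7A1, SLC7A3, SLC38A1, SLC38A2, SLC1A4, SLC1A5 and SLC6A9. They were chosen by gene symbol, with the estimated reads and transcript abundances of the deposited table summed over those transcripts of each gene whose identifiers were matched, out of 34318 genes that had a matched transcript. All 10 had a matched transcript and passed the filter on low counts in every comparison. The 12 messenger RNA libraries, 4 groups of 3, were made from HEK293T cells, a widely used line derived from human embryonic kidney. In 1 experiment, cells were transfected with a control siRNA (siControl) or with an siRNA against POLR3A (siPOLR3A), the largest subunit of RNA polymerase III (Pol III), and were collected after 2 days. In the second, cells were kept for 4 hours in 0.1% DMSO, the vehicle (DMSO), or in 25 µM ML60218, a small-molecule inhibitor of Pol III (ML60218). All groups are of 1 cell line, no genotype was changed, and the labels do not say whether the replicates were separate cultures, so the p-values measure the spread between these libraries, which may be technical.

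Amino acid transporters set how much of each amino acid a cell can take up, exchange or keep. Some work as exchangers, which bring in 1 amino acid for another that leaves, and others are driven by the sodium gradient or the membrane potential. Several transporters of the SLC7 family, SLC7A5 and SLC7A11 among them, are light chains that need the glycoprotein encoded by SLC3A2 (4F2hc, also CD98) to reach the cell surface. In cells short of amino acids, uncharged transfer RNAs activate the kinase GCN2 (EIF2AK4), and the transcription factor ATF4 then raises the transcription of several of these genes as part of the integrated stress response. The subunit of Pol III that was depleted belongs to the enzyme that makes transfer RNAs.

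The libraries held between 37008325 and 49479476 estimated reads, of which between 91.0% and 91.6% fell on transcripts matched to a gene, and mitochondrial genes took between 5.38% and 9.73% of the matched reads. POLR3A changed by −2.36 on the log2 scale after its siRNA and by −0.38 with ML60218 (edgeR's quasi-likelihood test, adjusted p 1.94e-05 and 0.000229). Of 7 epithelial markers, 6 were at 1 TPM or more in every library, where TPM is the deposited transcript abundance, a level corrected for transcript length. KRT19 was at or near 0, and VIM and CDH2, which are shared with mesenchymal cells, led the list. Of 8 markers of mature kidney tubule and podocyte, 7 were under 1 TPM in every library. PTPRC and HBB, which mark blood cells, were at 0 in all 12 libraries, and the 3 endothelial markers were under 1 TPM. Neuronal markers were present, with NEFL and NEFM in the lead, at a summed 202 to 231 TPM in siControl and 118 to 126 TPM in siPOLR3A, and at 143 to 151 TPM in DMSO and 169 to 182 TPM in ML60218. The summed epithelial markers stood at 457 to 476 TPM in siControl and 349 to 361 TPM in siPOLR3A. In DMSO the sum was 440 to 472 TPM and in ML60218 492 to 545 TPM. VIM, the leading marker, had a mean of 382 TPM in siControl, 270 TPM in siPOLR3A, 365 TPM in DMSO and 419 TPM in ML60218. After the siRNA the means of KRT8 and CDH2 were also lower, and those of EPCAM, CDH1 and KRT18 were higher. The part of these differences in the transporter results was not tested. In bulk RNA, fewer cells that express a gene and less RNA per cell cannot be told apart.

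The promoter windows shown lie at starts from which transcripts of the members were measured and hold a sequence that the list was searched for. Windows of SLC3A2 (chr11:62881449-62881748) and SLC1A5 (chr19:46787244-46787543) that also meet these conditions are not printed. Each window runs from 250 bases before to 50 bases after a transcription start of RefSeq on GRCh38.p14, read 5′ to 3′ on the gene's strand. Capitals mark TGATGNAA, a composite element that ATF4 and C/EBP factors are known to bind, and TGACNNNGC, the antioxidant response element bound by NRF2, in either orientation. The windows are SLC1A4 at chr2:64989149-64989448 (plus strand), SLC7A1 at chr13:29595639-29595938 (minus strand), SLC7A5 at chr16:87869458-87869757 (minus strand) and SLC1A5 at chr19:46784765-46785064 (minus strand).
SLC1A4: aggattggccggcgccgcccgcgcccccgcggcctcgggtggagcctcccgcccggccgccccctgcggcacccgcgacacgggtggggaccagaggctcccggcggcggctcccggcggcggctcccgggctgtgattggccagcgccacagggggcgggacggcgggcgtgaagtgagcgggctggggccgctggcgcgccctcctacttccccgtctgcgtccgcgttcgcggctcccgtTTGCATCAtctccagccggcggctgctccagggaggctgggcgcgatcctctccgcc
SLC7A1: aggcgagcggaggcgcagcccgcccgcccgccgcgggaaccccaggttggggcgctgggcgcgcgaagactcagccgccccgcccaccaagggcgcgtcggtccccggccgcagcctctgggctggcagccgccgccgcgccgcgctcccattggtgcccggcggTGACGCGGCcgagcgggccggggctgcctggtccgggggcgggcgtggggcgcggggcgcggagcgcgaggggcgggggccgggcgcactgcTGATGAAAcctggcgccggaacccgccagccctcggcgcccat
SLC7A5: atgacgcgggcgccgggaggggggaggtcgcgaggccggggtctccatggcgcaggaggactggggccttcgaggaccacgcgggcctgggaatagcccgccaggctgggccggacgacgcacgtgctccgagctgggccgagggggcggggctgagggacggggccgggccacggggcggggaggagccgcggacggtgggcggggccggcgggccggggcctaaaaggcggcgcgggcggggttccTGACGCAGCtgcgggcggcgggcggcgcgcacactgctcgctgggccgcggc
SLC1A5: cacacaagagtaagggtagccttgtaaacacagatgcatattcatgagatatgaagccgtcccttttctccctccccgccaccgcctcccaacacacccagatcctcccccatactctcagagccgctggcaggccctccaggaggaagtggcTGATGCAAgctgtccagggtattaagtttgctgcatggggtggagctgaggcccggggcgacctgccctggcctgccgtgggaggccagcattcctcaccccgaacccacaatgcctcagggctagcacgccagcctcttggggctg

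RefSeq windows were matched for 8 of the members, 14 windows in all. SLC7A11 and SLC7A3 had no window, so their promoters were not searched. TGATGNAA was found in 5 of the 14 windows, in SLC1A4, SLC7A1, SLC3A2, SLC38A1 and SLC1A5, against 3.62% of the 34943 windows of all genes. In SLC1A4 the match spans the start itself, from −7 to 1 with the start counted as 1, and the transcript that begins beside it carried 81.3% of the gene's TPM. In SLC7A1 it lies at 8 to 15, at the start of a transcript with 98.2% of the TPM. In SLC1A5 the match is at −97 to −90 of an internal start at 46784814. Transcripts that begin near it carried 5.57% of the TPM, and the leading one of them, ENST00000594991.5, begins at 46784905, inside the match. The matches in SLC3A2 (38 to 45) and SLC38A1 (−4 to 4) lie at starts that carried 3.0% of the TPM or none. TGACNNNGC was found in 4 of the 14 windows (SLC3A2, SLC7A1, SLC7A5 and SLC1A5), against 13.3% of all windows. The internal control element of transfer RNA genes, GTTCGANNC, was found in 0 of the 14 windows, against 0.833% of all, and TATAAA in 1, against 11.6%. The 2 marked motifs lie apart in the SLC7A1 window, which holds both, and in the SLC3A2 window that also holds both. A match describes the letters only.

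In untreated levels the 10 genes spanned a wide range. In the DMSO libraries the order by TPM was SLC1A5 (168 ± 4.92, SD, n = 3), SLC38A2 (107 ± 5.19), SLC3A2 (81.5 ± 1.08), SLC7A5 (71.8 ± 2.56), SLC38A1 (66.6 ± 2.84), SLC7A1 (29.9 ± 1.27), SLC7A3 (7.36 ± 0.13), SLC1A4 (5.27 ± 0.22), SLC6A9 (5.13 ± 0.29) and SLC7A11 (3.98 ± 0.29). Of neighbours in that order, the libraries overlapped only for SLC1A4 and SLC6A9. SLC7A11, the last in DMSO, held place 8 in siControl, with 6.37 ± 0.45 TPM, and place 7 in ML60218, with 14.9 ± 2.84 TPM. With ML60218, SLC3A2 stood first at 206 ± 56.9 TPM, and its libraries overlapped with those of SLC1A5 at 180.5 ± 10.0 TPM. The summed level of the 10 genes was 539, 524 and 517 TPM in siControl and 509, 514 and 502 TPM in siPOLR3A. It was 562, 548 and 529 TPM in DMSO and 723, 846 and 928 TPM in ML60218, so that every ML60218 library was above every other library. Part of this rise is that of SLC3A2, with means of 81.5 TPM in DMSO and 206 TPM in ML60218. In log2(TPM + 1) the median log2 fold change of all genes with ML60218 was also above 0, at 0.11. The siPOLR3A sums all lay below the siControl sums.

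**Figure D1:**
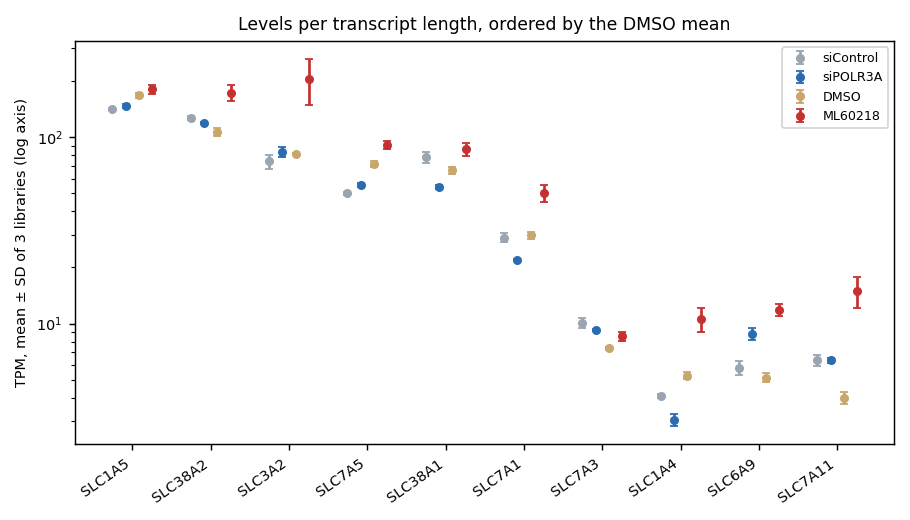
Mean TPM ± SD of 3 libraries (log axis) for the 10 genes in siControl, siPOLR3A, DMSO and ML60218, ordered by the DMSO mean. SLC1A5 leads in DMSO at 168 TPM and SLC7A11 is last at 3.98 TPM, and SLC3A2 and SLC7A11 show the widest gaps between DMSO and ML60218.

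After depletion of POLR3A, 8 of the 10 genes changed, 3 upward and 5 downward, and no change reached 2-fold. Of all genes, 1.88% were called and rose by at least that much, and the share that fell so far was not computed. SLC6A9, SLC3A2 and SLC7A5 were higher, and SLC38A1, SLC7A1, SLC1A4, SLC7A3 and SLC38A2 were lower. A gene counts as changed at a Benjamini-Hochberg adjusted p under 0.05 in edgeR's quasi-likelihood test, adjusted over all 15404 genes tested. By that rule 56.6% of all genes changed, 27.4% upward and 29.2% downward, so most genes changed and the count of members is read against that share. The median log2 fold change of the 10 genes was −0.05, against 0.01 for all genes. The 3 libraries of each group did not overlap for 8 members, against 63.4% of all genes.

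With ML60218, 8 of the 10 genes were higher and none was lower. SLC7A11 rose most, followed by SLC6A9, SLC3A2, SLC1A4, SLC7A1, SLC38A2, SLC38A1 and SLC7A5, and SLC7A3 and SLC1A5 did not pass the test. Of 15461 genes tested, 39% changed in either direction, 18.1% upward and 20.9% downward. The median log2 fold change was 0.60 for the members and 0.01 for all genes. The groups did not overlap for 8 members, against 51.9% of all genes. SLC7A11 and SLC6A9 were called and at least 2-fold higher, as were 1.14% of all genes. Among the 8 genes that were higher, the library of ML60218 replicate 1 gave the lowest of the 3 values in all 8. In that library mitochondrial genes took 7.22% of the matched reads, against 5.56% and 5.38% in the other two ML60218 libraries, and the part of this in the result was not tested. Without it, 8 members were still called higher.

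**Figure D2:**
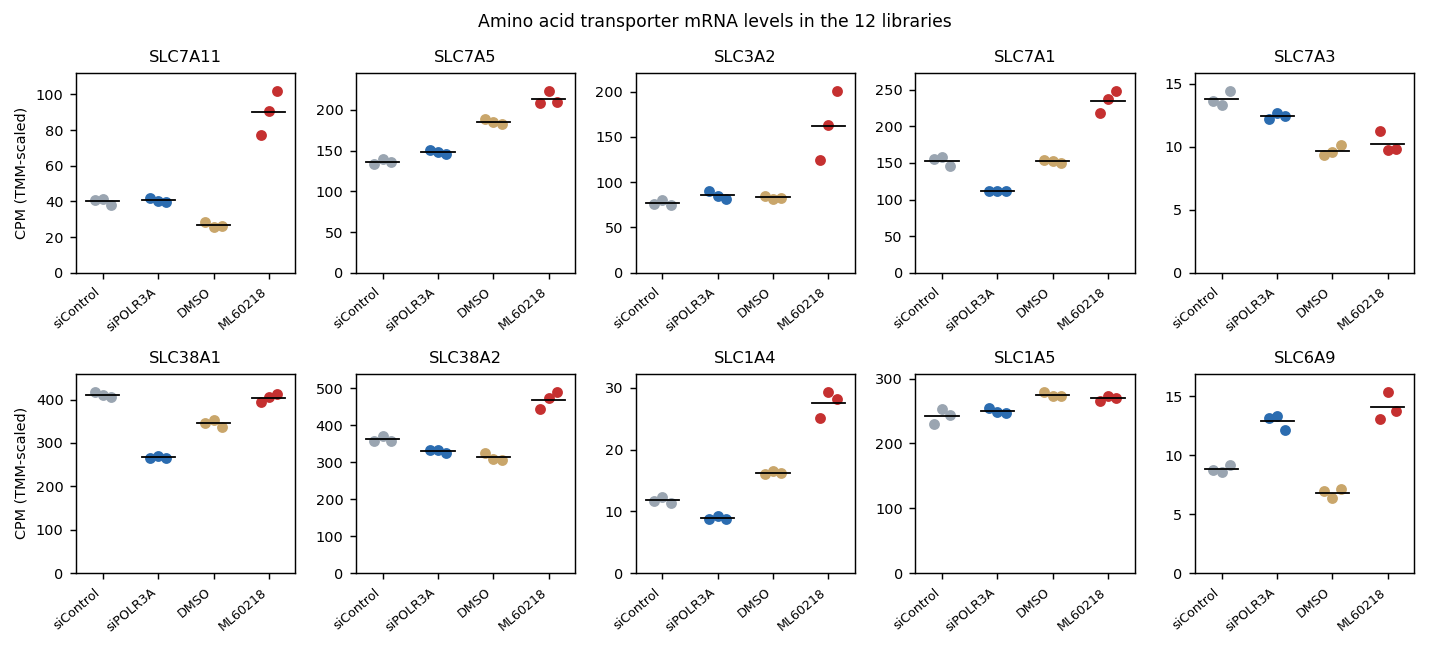
CPM (reads relative to library size, scaled by TMM factors) of each gene in each of the 12 libraries, with a line at the mean of each group of 3. For SLC7A11 the ML60218 libraries sit between 77.2 and 102 CPM, above the 9 others, which lie between 25.7 and 42.2 CPM.

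The first group comprises the heavy chain SLC3A2 and 2 light chains that pair with it. SLC7A11 (xCT; ENSG00000151012, GRCh38 chromosome 4, 138164097 to 138242349, minus strand) imports cystine in exchange for glutamate and thereby supplies cysteine for glutathione. Its level was 41.0, 41.4 and 38.1 CPM (reads relative to library size) in siControl and 42.2, 40.5 and 39.8 CPM in siPOLR3A. These groups overlapped, and the log2 fold change was 0.02 (adjusted p 0.657, SE 0.042). The DMSO libraries gave 28.4, 25.7 and 25.9 CPM and the ML60218 libraries 77.2, 90.9 and 102 CPM. Every ML60218 library was above every other library of the series. The log2 fold change was 1.76 with an SE of 0.105 (adjusted p 0.000173), a 3.38-fold rise, and 0.259% of all genes rose more. Leaving out 1 library at a time gave between 1.66 and 1.85.

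SLC7A5 (LAT1; ENSG00000103257, chromosome 16, 87830023 to 87869488, minus strand) exchanges large neutral amino acids such as leucine for glutamine. Its level was 134, 140 and 136 CPM in siControl and 150.2, 148 and 146 CPM in siPOLR3A, 2 groups that did not overlap. The log2 fold change was 0.12 (adjusted p 0.00137, SE 0.026). It became −0.02, no longer called, when a trend with GC content and length was removed from each library. In DMSO it was measured at 189, 186 and 183 CPM and in ML60218 at 209, 223 and 209 CPM. All ML60218 libraries were higher, by 0.20 on the log2 scale (SE 0.035, adjusted p 0.00176), which is 1.15-fold. SLC7A11 stood at 0.055 ± 0.0029 of the TPM of SLC7A5 in DMSO and at 0.163 ± 0.026 in ML60218.

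SLC3A2 (ENSG00000168003, chromosome 11, 62856102 to 62888875, plus strand) encodes the heavy chain that carries both of these to the membrane. It was measured at 76.3, 79.8 and 74.4 CPM in siControl and at 89.8, 84.4 and 81.7 CPM in siPOLR3A. The siPOLR3A libraries were all higher, by 0.15 (SE 0.038, adjusted p 0.00405), a call that was lost in 5 of 18 alternatives, with an adjusted p of up to 0.421 when all 12 libraries shared a fit. In DMSO it stood at 84.8, 81.7 and 82.7 CPM and in ML60218 at 124, 163 and 200.3 CPM. The ML60218 libraries were all above the DMSO libraries but differed widely among themselves. The log2 fold change was 0.97 with an SE of 0.193 (adjusted p 0.0191). The call was lost in 5 of 18 alternatives: without each of the DMSO libraries (adjusted p 0.0703, 0.0694 and 0.0705), without ML60218 replicate 2 (0.0554) and with the replicate number as a block (0.0536). Over the single libraries left out, the log2 fold change ranged from 0.79 to 1.13. On the TPM scale the change was larger, 1.28 (limma on log2(TPM + 1)). The ratio of SLC3A2 to the summed TPM of SLC7A5 and SLC7A11 was 1.05, 1.05 and 1.13 in DMSO and 1.49, 1.90 and 2.37 in ML60218, with no overlap. It was 1.31 ± 0.116 in siControl and 1.35 ± 0.083 in siPOLR3A.

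The second group takes up cationic amino acids. SLC7A1 (CAT1; ENSG00000139514, chromosome 13, 29509410 to 29595688, minus strand) is the widespread uniporter of arginine and lysine. In siControl it was measured at 156, 158 and 146 CPM and in siPOLR3A at 111, 112 and 111 CPM. All siPOLR3A libraries were lower, by −0.46 on the log2 scale (SE 0.031, adjusted p 1.83e-08). The DMSO libraries gave 154, 153 and 149.8 CPM, close to siControl, and the ML60218 libraries 219, 238 and 248 CPM. All ML60218 libraries were higher, with a log2 fold change of 0.63 (adjusted p 5.21e-05, SE 0.044). SLC7A1 thus changed in opposite directions, and both calls held in all 18 alternatives of each comparison.

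SLC7A3 (CAT3; ENSG00000165349, chromosome X, 70925582 to 70931125, minus strand) carries the same substrates and is known mainly from neural tissue. Its level was 13.6, 13.3 and 14.4 CPM in siControl and 12.2, 12.7 and 12.4 CPM in siPOLR3A. The groups did not overlap, and the log2 fold change of −0.15 (SE 0.059) had an adjusted p of 0.0472. The call was lost in 14 of 18 alternatives. In DMSO it was measured at 9.35, 9.61 and 10.1 CPM and in ML60218 at 11.3, 9.73 and 9.80 CPM, groups that overlapped. The log2 fold change there was 0.08 (SE 0.082, adjusted p 0.473). In TPM, SLC7A1 stood at 4.06 ± 0.241 times SLC7A3 in DMSO, 5.92 ± 0.826 in ML60218, 2.88 ± 0.27 in siControl and 2.39 ± 0.029 in siPOLR3A.

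The third group, system A, concentrates small neutral amino acids such as glutamine and alanine with sodium. SLC38A1 (SNAT1; ENSG00000111371, chromosome 12, 46183063 to 46270017, minus strand) had the most reads of the 10 in every siControl and DMSO library. Its level was 418, 409.6 and 405 CPM in siControl and 264, 270.3 and 265 CPM in siPOLR3A. All siPOLR3A libraries were lower, with a log2 fold change of −0.62 (adjusted p 3.06e-11, SE 0.023), and 6.76% of all genes fell further. The DMSO libraries gave 347, 353 and 337 CPM and the ML60218 libraries 394.5, 406.5 and 412 CPM. The ML60218 libraries were all higher, by 0.23 (SE 0.032, adjusted p 0.000751). Removing the trend with GC content and length left 0.05, no longer called (adjusted p 0.374).

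SLC38A2 (SNAT2; ENSG00000134294, chromosome 12, 46358189 to 46372867, minus strand) is the member of system A that is known to be induced when amino acids run short. It was measured at 356, 372 and 357 CPM in siControl and at 332, 332 and 325 CPM in siPOLR3A. The siPOLR3A libraries were all lower, with a log2 fold change of −0.13 (adjusted p 0.000308, SE 0.024), a call that limma on TPM values did not make. In DMSO it was measured at 324, 308 and 306 CPM and in ML60218 at 442, 472 and 490.4 CPM. All ML60218 libraries were higher, by 0.58 (SE 0.042, adjusted p 5.93e-05). The TPM of SLC38A2 was 1.60 ± 0.0535 times that of SLC38A1 in DMSO and 2.01 ± 0.0523 times in ML60218. It was 1.63 ± 0.0671 times in siControl and 2.19 ± 0.0558 times in siPOLR3A, so the ratio was higher in the treated libraries of both experiments, with no overlap.

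The fourth group exchanges small neutral amino acids with sodium. SLC1A4 (ASCT1; ENSG00000115902, chromosome 2, 64988477 to 65023865, plus strand) carries serine, alanine and cysteine. Its level was 11.7, 12.3 and 11.4 CPM in siControl and 8.77, 9.25 and 8.83 CPM in siPOLR3A. All siPOLR3A libraries were lower, with a log2 fold change of −0.40 (adjusted p 0.000126, SE 0.065). The DMSO libraries gave 16.0, 16.6 and 16.2 CPM and the ML60218 libraries 25.1, 29.4 and 28.1 CPM. The ML60218 libraries were all higher, by 0.76 (SE 0.065, adjusted p 0.00011), or 1.69-fold. Both calls held in all 18 alternatives of each comparison.

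SLC1A5 (ASCT2; ENSG00000105281, chromosome 19, 46774883 to 46788594, minus strand), its paralog, is a major route of glutamine entry. It was measured at 230.3, 254 and 244 CPM in siControl and at 255, 248 and 248 CPM in siPOLR3A, groups that overlapped. The log2 fold change was 0.04 (adjusted p 0.278, SE 0.032), and it was called higher under upper quartile and total-count scaling (0.10 and 0.09) and lower with the GC and length trend removed (−0.10). In DMSO it was measured at 280.0, 274 and 273 CPM and in ML60218 at 265, 274 and 269.6 CPM, again with overlap. The log2 fold change was −0.03 with an SE of 0.029 (adjusted p 0.435), and no alternative called it. The TPM of SLC1A5 was 32.0 ± 1.83 times that of SLC1A4 in DMSO and 17.3 ± 1.7 times in ML60218, against 34.7 ± 1.44 times in siControl and 48.3 ± 3.39 times in siPOLR3A.

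SLC6A9 (GLYT1; ENSG00000196517, chromosome 1, 43991500 to 44031467, minus strand) takes up glycine with sodium and chloride. Its level was 8.71, 8.57 and 9.18 CPM in siControl and 13.2, 13.3 and 12.1 CPM in siPOLR3A. All siPOLR3A libraries were higher, with a log2 fold change of 0.55 (adjusted p 7.62e-06, SE 0.066). The DMSO libraries gave 6.92, 6.36 and 7.10 CPM and the ML60218 libraries 13.1, 15.4 and 13.8 CPM. All ML60218 libraries were higher, by 1.05 (SE 0.085, adjusted p 9.24e-05), or 2.07-fold. It was the member with the largest rise after the siRNA, and it rose in both experiments in all 18 alternatives of each.

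**Figure D3:**
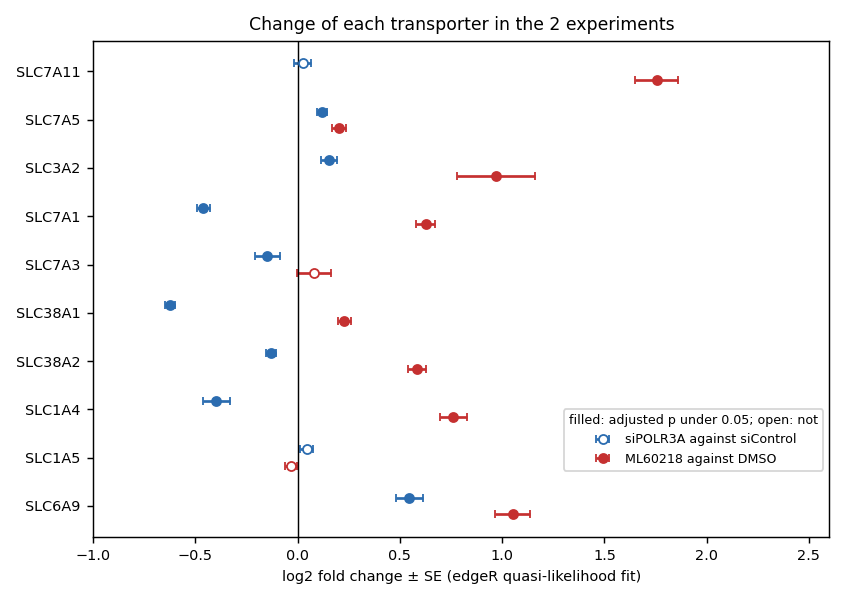
Log2 fold change ± SE of the 10 genes from the edgeR fits for siPOLR3A against siControl and for ML60218 against DMSO, with filled points for an adjusted p under 0.05. The ML60218 values run from −0.03 (SLC1A5) to 1.76 (SLC7A11) and the siPOLR3A values from −0.62 (SLC38A1) to 0.55 (SLC6A9).

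The effects of the treatments were compared in a joint fit of the 12 libraries, by subtracting the effect of ML60218 from that of siPOLR3A. Agent, duration and control differ together between the experiments. It passed the test for 7 of the 10 genes and was negative for each of them, while 50.9% of all 15780 genes passed and 26.4% did so on the negative side. SLC7A11 differed most, by −1.73 (adjusted p 4.34e-07, SE 0.124), followed by SLC1A4 (−1.15), SLC7A1 (−1.08), SLC38A1 (−0.85), SLC3A2 (−0.81), SLC38A2 (−0.71) and SLC6A9 (−0.50). For SLC3A2 the SE was 0.208 and the adjusted p 0.0103. The difference did not pass for SLC7A5 (−0.08, SE 0.043, adjusted p 0.145), SLC7A3 (−0.22, SE 0.096, adjusted p 0.0656) or SLC1A5 (0.08, SE 0.044, adjusted p 0.146). SLC7A1, SLC38A1, SLC38A2 and SLC1A4 were called lower after the siRNA and higher with ML60218, a class that held 6.43% of the 15165 genes tested in both comparisons.

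At the level of single transcripts, the division of reads between isoforms is itself an estimate. After the siRNA, 6 of 42 tested transcripts of the members changed, 1 higher and 5 lower, where 11.3% of all 69805 transcripts did, 4.87% higher and 6.43% lower. With ML60218, 10 of 49 were called, all higher, against 2.09% of all 70417 transcripts in either direction and 0.817% higher. These ML60218 calls were not stable: none of the 10 was left without any 1 of the DMSO libraries, without ML60218 replicate 2 or with the replicate block, 6 member transcripts were called without ML60218 replicate 1 and 1 without replicate 3, and DESeq2 called 16. The leading transcript of SLC7A11, ENST00000280612.9, carried 98.6% of the gene's TPM in DMSO and 97.8% in ML60218, and it rose by 1.75 on the log2 scale (SE 0.119, adjusted p 0.0258 in edgeR's test). The leading transcripts of SLC7A1 (ENST00000380752.10, 0.62), SLC38A2 (ENST00000256689.10, 0.50), SLC1A4 (ENST00000234256.4, 0.71) and SLC6A9 (ENST00000372310.8, 0.96) were also called.

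Minor transcripts were called higher with ML60218 in SLC38A2, SLC1A5 and SLC3A2. In SLC38A2, ENST00000549258.5, annotated as a target of nonsense-mediated decay, held 1.47%, 1.14% and 1.25% of the gene's TPM in the DMSO libraries. In ML60218 it held 4.77%, 6.20% and 8.80%, without overlap. It rose by 2.92 on the log2 scale (SE 0.310, adjusted p 0.028 in edgeR's test) against 0.58 for the gene. The siControl shares were 2.35%, 0.983% and 3.42% and the siPOLR3A shares 5.28%, 4.89% and 3.31%, and there the transcript was not called (adjusted p 0.337). In SLC1A5, which was not called as a gene, the transcript ENST00000594991.5 begins at position 46784905, inside the window of the internal start shown above. It held 2.91%, 3.05% and 2.11% of the TPM in DMSO and 6.47%, 7.76% and 6.14% in ML60218. Its log2 fold change was 1.31 (SE 0.192, adjusted p 0.0396), while the leading transcript ENST00000542575.6 had −0.07 (adjusted p 0.342).

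In SLC3A2, transcripts from several starts were measured. ENST00000338663.12, which led with 35.2% ± 3.86 of the TPM in DMSO, had a log2 fold change of 1.12 (SE 0.281) and an adjusted p of 0.113, so it was not called. ENST00000539458.1, which starts close to it, was called at 1.82 (SE 0.201, adjusted p 0.028), with 14.5% ± 2.02 of the TPM in DMSO and 22.7% ± 1.57 in ML60218. ENST00000377890.6, from the upstream start at 62856102, rose less, by 0.67 (SE 0.077, adjusted p 0.0286), and its share was 17.9% ± 0.471 in DMSO and 13.0% ± 2.77 in ML60218. In SLC1A4 the processed transcript ENST00000493121.5 held 7.54% ± 3.84 in DMSO and 15.2% ± 3.32 in ML60218, and its log2 fold change of 1.80 (SE 0.548) was not called (adjusted p 0.165).

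**Figure D4:**
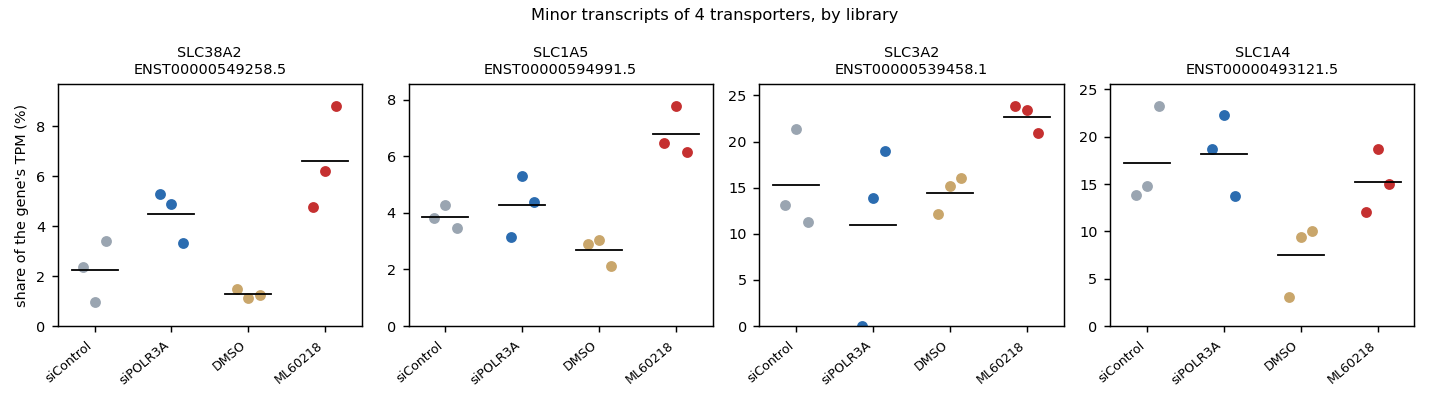
Share of the gene's TPM (percent) held by 1 minor transcript each of SLC38A2, SLC1A5, SLC3A2 and SLC1A4 in each of the 12 libraries, with a line at the mean of each group of 3. The ML60218 libraries lie above the DMSO libraries in all 4 plots, and ENST00000539458.1 of SLC3A2 was listed at 0 in 1 siPOLR3A library.

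Other amino acid transporters are given beside the 10. Their counts are read against the 56.6% of all genes called after the siRNA and 39% with ML60218. Of 27 other plasma membrane amino acid transporters, 18 were tested with ML60218, of which 1 was higher and 4 were lower, with a median of 0.03. SLC43A1, another carrier of large neutral amino acids, rose by 0.51, and SLC1A3 (−0.39), SLC7A8 (−0.38) and SLC7A6 (−0.22) fell. These 3 falls were not called on the TPM scale (adjusted p 0.184 to 0.631 in limma). After the siRNA, 16 were tested, 4 higher and 5 lower, with a median of 0.03. SLC38A4, a system A paralog at 1.52 ± 0.191 CPM in siControl, changed by −1.40, SLC1A3, a glutamate transporter, by −0.81, SLC43A2 by 0.46 and SLC7A2, a cationic transporter, by 0.33. Of 9 lysosomal amino acid transporters, 5 were higher and 1 was lower after the siRNA (median 0.13), and 1 was higher and 4 were lower with ML60218 (median −0.12). SLC36A1 rose from 19.8 ± 0.285 to 72.4 ± 0.19 CPM after the siRNA, a log2 fold change of 1.87, and fell by 0.36 with ML60218. CTNS, the cystine exporter, rose by 0.77, SLC38A7 by 0.51 and SLC66A1 by 0.36 after the siRNA. The call of CTNS was lost in 5 of 18 alternatives: with no filter on low counts (adjusted p 0.0811), with the replicate block (0.155), and without siControl replicate 2 (0.0793), siControl replicate 3 (0.0642) or siPOLR3A replicate 2 (0.0744). With ML60218, MFSD12 changed by −0.40, SLC38A7 by −0.21 and SLC38A9, an arginine sensor, by 0.23. The call of SLC38A7 with ML60218 was lost in 10 of 18 alternatives (adjusted p 0.0518 to 0.766). Among these were all single libraries left out except ML60218 replicate 1, and on the TPM scale its sign turned. The fall of SLC36A1 was not called on the TPM scale (adjusted p 0.0519 and 0.0517).

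Genes of the integrated stress response that are not transporters were listed beside them. Of 25 such genes, 23 were tested with ML60218, of which 19 were higher and 1 was lower, with a median of 0.81. CHAC1, which degrades glutathione, rose from 1.64 ± 0.0217 to 14.6 ± 1.61 CPM (log2 fold change 3.15), and the transcription factors ATF3 and DDIT3 rose by 2.28 and 2.10. GDF15 rose by 1.88, at under 1 CPM in both groups, and ATF5 (−0.66), named because it was the gene that fell, lay outside the naming rule. ATF4, also outside that rule, was not called with ML60218 (0.14, adjusted p 0.257 in edgeR's test). It was called higher after the siRNA (0.18, adjusted p 0.00406 in the same test). After the siRNA 22 were tested, 6 higher and 4 lower, with a median of 0.03, and DDIT4 (−0.58), ATF5 (0.43), PHGDH of serine synthesis (−0.38) and CEBPB (0.28) changed most. CEBPB was no longer called with the GC and length trend removed (adjusted p 0.819). Of the 4 kinases that start this response, EIF2AK4 (GCN2) rose by 0.08 and EIF2AK3 (PERK) changed by −0.34 after the siRNA. The call of EIF2AK4 was lost in 6 of 18 alternatives: with DESeq2 (adjusted p 0.0607), without siControl replicate 2 (0.0689) or siPOLR3A replicate 2 (0.0906), with the isoform length offset (0.377) and in both limma fits on TPM (0.366). With ML60218 their log2 fold changes were −0.04, 0.15, 0.19 and 0.07 for EIF2AK1 to EIF2AK4, with adjusted p-values from 0.108 to 0.417 in edgeR's test. Of 16 NRF2 targets and regulators other than SLC7A11, 1 was higher and 5 were lower with ML60218 (median −0.04). SRXN1 changed by −0.50, BACH1 by 0.26, KEAP1 by −0.23 and TXNRD1 by −0.19. TXNRD1 and KEAP1 were not called on the TPM scale (adjusted p 0.49 to 0.991), KEAP1 was not called with the isoform length offset (0.0523), and BACH1 was not called with the GC and length trend removed (0.0865). After the siRNA 4 were higher and 6 lower (median −0.08), with NQO1 at −1.15, GCLM at −0.59, NFE2L2, which encodes NRF2, at −0.49 and PGD at −0.45. Of 11 regulators of transporters at the membrane, 7 were higher and 3 lower after the siRNA (median 0.23), led by ITCH (−1.06), TXNIP (0.53), CD44 (−0.50) and ARRDC3 (0.38). With ML60218, 3 were higher and 5 lower (median −0.11), led by ARRDC3 (1.95), TXNIP (−0.59), SGK1 (−0.46) and NEDD4L (0.18). The calls of ARRDC3 after the siRNA and of SGK1 with ML60218 were lost on the TPM scale and with the isoform length offset (adjusted p 0.109 to 0.269), and that of NEDD4L in 4 of 18 alternatives, among them those without DMSO replicate 1 (0.0533) or DMSO replicate 2 (0.0758). The background shares are those given above, and these lists were described by counts and medians, with no test of a list.

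The genes whose pattern was most like that of a member were taken by Pearson's r over the 12 libraries among 10438 genes. It was computed on log2 CPM minus the mean of the control group of the same experiment. The libraries share groups and treatments, so r describes this set of libraries only. STC2 and TUBE1 were most like SLC7A11 (r 0.995 for both), and ELAPOR2 (0.999) and BRCA1 (0.998) most like SLC38A1. For SLC7A1 these were PMS1 (0.997) and ZEB1 (0.995), and for SLC1A4 PMS1 (0.994) and MTHFD2 (0.993). LRRC8D and DNAJC16 came first for SLC38A2 (0.992 and 0.991), ZNF709 and ZNF619 for SLC3A2 (0.991 and 0.987), and GPT2 and SLC16A9 for SLC6A9 (0.980 and 0.978). The closest genes were DCUN1D2 and TMEM209 for SLC7A5 (0.976 and 0.968), WDR54 and ADAMTS19 for SLC7A3 (0.969 and 0.925), and NR2C2AP and MAIP1 for SLC1A5 (0.872 and 0.870).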

How the data were processed

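The deposited table gives, per the file headers, an estimated count (NumReads) and a TPM value for each of 194142 Ensembl transcripts in each of the 12 libraries, columns of the kind that salmon writes. TPM is abundance relative to a fixed total, and the authors' deposited TPM values sum to the same total in every library. Per the submitters' processing notes, the build was hg38 and bcl2fastq 2.20, Trim Galore and DESeq2 were used. The quantifier's version, its settings and the transcript set are not given in the sources used here. Per the labels' protocols, a stranded mRNA kit was used. All columns with values of samples were used.

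Identifiers in GENCODE release 29 on GRCh38 tied 158359 of the transcripts (81.6%) to genes. Transcripts with no match held between 8.37% and 8.97% of the reads and stayed out of library sizes and tests. The estimated counts of a gene's transcripts were added up and rounded. Each experiment was fitted on its 6 libraries with edgeR 4.0.16 in R 4.3.3: filterByExpr with a minimum count of 10 and a minimum total of 15, TMM scaling (trimmed mean of M values) and the two-sided robust quasi-likelihood test with Benjamini-Hochberg adjustment over all features. The SE is the log2 fold change divided by the square root of F. Transcripts were fitted in the same way. The fits were also run on simulated data. The simulated transcripts varied less between libraries than the real ones, so they do not show how the transcript fits perform here.

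Alternatives were other scalings, no filter on low counts, DESeq2 1.42.0, limma 3.58.1 on log2(TPM + 1) and log2(TPM + 0.1), a replicate block, each library left out, added neighbouring transcripts and an offset for isoform length. A GC and length correction was chosen after seeing the data. All members were described, and of each other list the 4 called genes with the largest changes. ATF4, ATF5 with ML60218 and the eIF2α kinases were also named. Of transcripts, those with at least 10% of a gene's TPM were described, and others were chosen after their values were seen. The members and lists were chosen with earlier results of these data known. The lists of other plasma membrane transporters, lysosomal transporters, integrated stress response genes, NRF2 genes, eIF2α kinases and membrane regulators came from general knowledge. Promoter windows are from RefSeq.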

Additional observations from a re-analysis of the deposited data

Results flagged for a closer look

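The difference obtained by subtracting the effect of ML60218 from that of siPOLR3A was tested for each member in the fit of all 12 libraries, and 7 members passed. Their values were −1.727 for SLC7A11, −1.154 for SLC1A4, −1.081 for SLC7A1, −0.8465 for SLC38A1, −0.8132 for SLC3A2, −0.7098 for SLC38A2 and −0.4999 for SLC6A9, on the log2 scale. Each held its direction and its call in all 23 alternatives run for it. Of these members, SLC3A2 and SLC6A9 were called higher in both experiments, each with the larger log2 fold change for ML60218. The SLC3A2 calls within each experiment were lost in 5 of 18 alternatives.

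Transcripts with no matched identifier that stand among those of SLC3A2 in the table had a signal outside the comparisons. There were 15 of them, with a summed TPM of 11.8, 13.8 and 15.4 in the DMSO libraries and 47.2, 50.6 and 37.0 in the ML60218 libraries. The ML60218 mean was 44.95 TPM and the DMSO mean 13.7 TPM, and the groups did not overlap. In siControl and siPOLR3A the means were 15.5 and 17.6 TPM. With these transcripts added to SLC3A2, the log2 fold change with ML60218 was 1.08 in place of 0.97 and the adjusted p in edgeR's test 0.00154.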

How the results depend on the processing

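The counts of members called stayed within 1.5 times the reported 8, 8 and 7 under all alternatives except limma on log2(TPM + 1) and log2(TPM + 0.1), which called 5 members after the siRNA. The TPM scale moved the median of all genes with ML60218 by 0.10 and 0.13, and the percentage of higher genes among the called from 46.4% to 82.2% and 82.5%. That share was 58.6% with upper quartile factors, 67.0% with total counts and 26.3% after removal of the GC and length trend. For the siRNA it was 48.4%, and 58.7% with upper quartile factors; for the difference it was 48.2%, and 32.2% and 32.0% on the TPM scale. The members called higher with ML60218 numbered 8 under all 3 scalings and on TPM, and 7 with the trend removed. The siRNA split of 3 higher and 5 lower became 4 and 4 with upper quartile factors and total counts, and 1 and 6 after removal of the trend.

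Same-numbered libraries did not deviate together (r −0.022, 0.073 and −0.072 for the siRNA, 0.008, 0.058 and −0.044 for ML60218), so no pairing by number was seen. The labels do not say what the numbers mark, and these values cannot exclude a shared day or culture. With the replicate block, 7, 7 and 7 members were called, 2870 transcripts and 2 member transcripts after the siRNA, and 0 and 0 with ML60218. DESeq2 called 13096 transcripts after the siRNA, and 8786 with ML60218, of which 16 belonged to members. With ML60218, 883 transcripts were called with no filter on low counts and 5250 with all 12 libraries in the fit. Leaving out 1 library gave 4860 to 5206 transcripts and 4 to 5 member transcripts after the siRNA, and 0 to 525 and 0 to 6 with ML60218. The cause was not tested.

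Some directions turned. After the siRNA, SLC7A11 had −0.0279 with the isoform length offset, −0.0031 and −0.0033 on the TPM scale and −0.012 to 0.0458 without 1 library. With the GC and length trend removed, SLC7A5 had −0.0177, SLC1A5 −0.10 and CEBPB, called at 0.28, −0.0208. With ML60218, SLC1A5 had 0.0077 with upper quartile factors, 0.0393 with total counts and 0.10 on the TPM scale, and SLC38A7, called at −0.21, had 0.0483 and 0.0513 there. The difference for SLC1A5 was −0.0457 and −0.0459 on the TPM scale and −0.0454 with the trend removed. Without 1 library at a time, the log2 fold changes of transcripts after the siRNA ranged as follows: ENST00000280612.9 −0.0231 to 0.0358, ENST00000539458.1 −0.904 to 0.234, ENST00000374299.8 −0.22 to 0.235, ENST00000542575.6 −0.000657 to 0.0616. With ML60218 they were ENST00000298085.4 −0.18 to 0.119, ENST00000546893.5 −0.0766 to 0.11. ENST00000542575.6 with ML60218 had 0.0031 with total counts. The cause was not tested. Of the lists, that of integrated stress response genes other than the kinases kept its counts within 1.5 times in every alternative. Kinases called higher numbered 0 to 3 in place of 1 after the siRNA and 1 in place of 0 with ML60218, where 1 was called lower in place of 0 with the trend removed. After the siRNA, other plasma membrane transporters had 2 higher calls in place of 4 with the trend removed and 3 lower in place of 5 on TPM, and lysosomal transporters 2 lower in place of 1 with the trend removed. With ML60218 the higher calls were 0 to 2 in place of 1 for NRF2 genes and 1 in place of 3 for membrane regulators. With ML60218 the lower calls ranged from 0 to 2 in place of 4 for other plasma membrane transporters, from 1 to 2 in place of 4 for lysosomal transporters, from 1 to 8 in place of 5 for NRF2 genes and from 1 to 3 in place of 5 for membrane regulators, over the alternatives that moved them.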
